A study of Rattus norvegicus with 2 samples.

Results

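The subunits of the mitochondrial respiratory chain and of the ATP synthase were read on 2 oligonucleotide arrays of the rat heart. Probe sets belonged here when the platform annotation gave them exactly 1 gene symbol and that symbol began with Nduf, Uqcr, Cyc1, Cycs or Atp5, with Cox followed by a digit from 4 to 8, or with Sdha, Sdhb, Sdhc or Sdhd. This gave 102 of the 8740 probe sets that were not controls, and 56 of the 4736 genes named by a single symbol. No Cycs probe set, and for complex II only Sdha and the assembly factor Sdhaf2, met that rule. One array held heart RNA from male rats of the Dahl salt-sensitive strain, whose blood pressure climbs when salt is eaten, kept on a high-salt diet and labelled as having chronic heart failure, and 1 array held heart RNA from male rats of that strain on a low-salt diet. Both groups were 17 weeks old. Whether each RNA came from 1 animal or from a pool, and from which chamber, is not given in the sources used here. With 1 array per diet there is no spread between samples, so no p-value is given and each difference compares these 2 arrays. Paired intensities are given with the high-salt array first.

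The respiratory chain passes electrons from NADH and succinate to oxygen through 4 complexes in the inner mitochondrial membrane, and complexes I, III and IV pump protons as they do so. The ATP synthase, called complex V, lets the protons flow back and makes ATP. Most subunits are encoded in the nucleus, and a few, including the catalytic core of complex IV, are encoded in mitochondrial DNA. The heart makes nearly all of its ATP in this way and is rich in these transcripts.

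Almost every gene of this set read lower in the high-salt heart, and by a small margin. Of the 56 genes, 53 reached the noise floor, an intensity of 126.4, on at least 1 array. That floor bounds 95% of the negative readings in size, and anything dimmer was set to it before the ratio was formed. Of those 53, 49 had a ratio of high salt over low salt below 1 (44 after loess scaling of the arrays, 48 after quantile scaling) and 4 had a ratio above 1. Over all 1216 genes on the arrays that reached the floor, 54.5% had a ratio below 1. At least 2-fold lower were 2 genes, Ndufb10 and Ndufs7, against 1.89% of all genes, and none was at least 2-fold higher, against 3.54% of all genes. The median log2 ratio was -0.29 (quartiles -0.42 and -0.15), which is a 1.22-fold lower intensity, beside -0.04 (quartiles -0.28 and 0.22) over all genes. In bulk tissue, fewer cells of a type and less RNA per cell cannot be told apart.

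**Figure D1:**
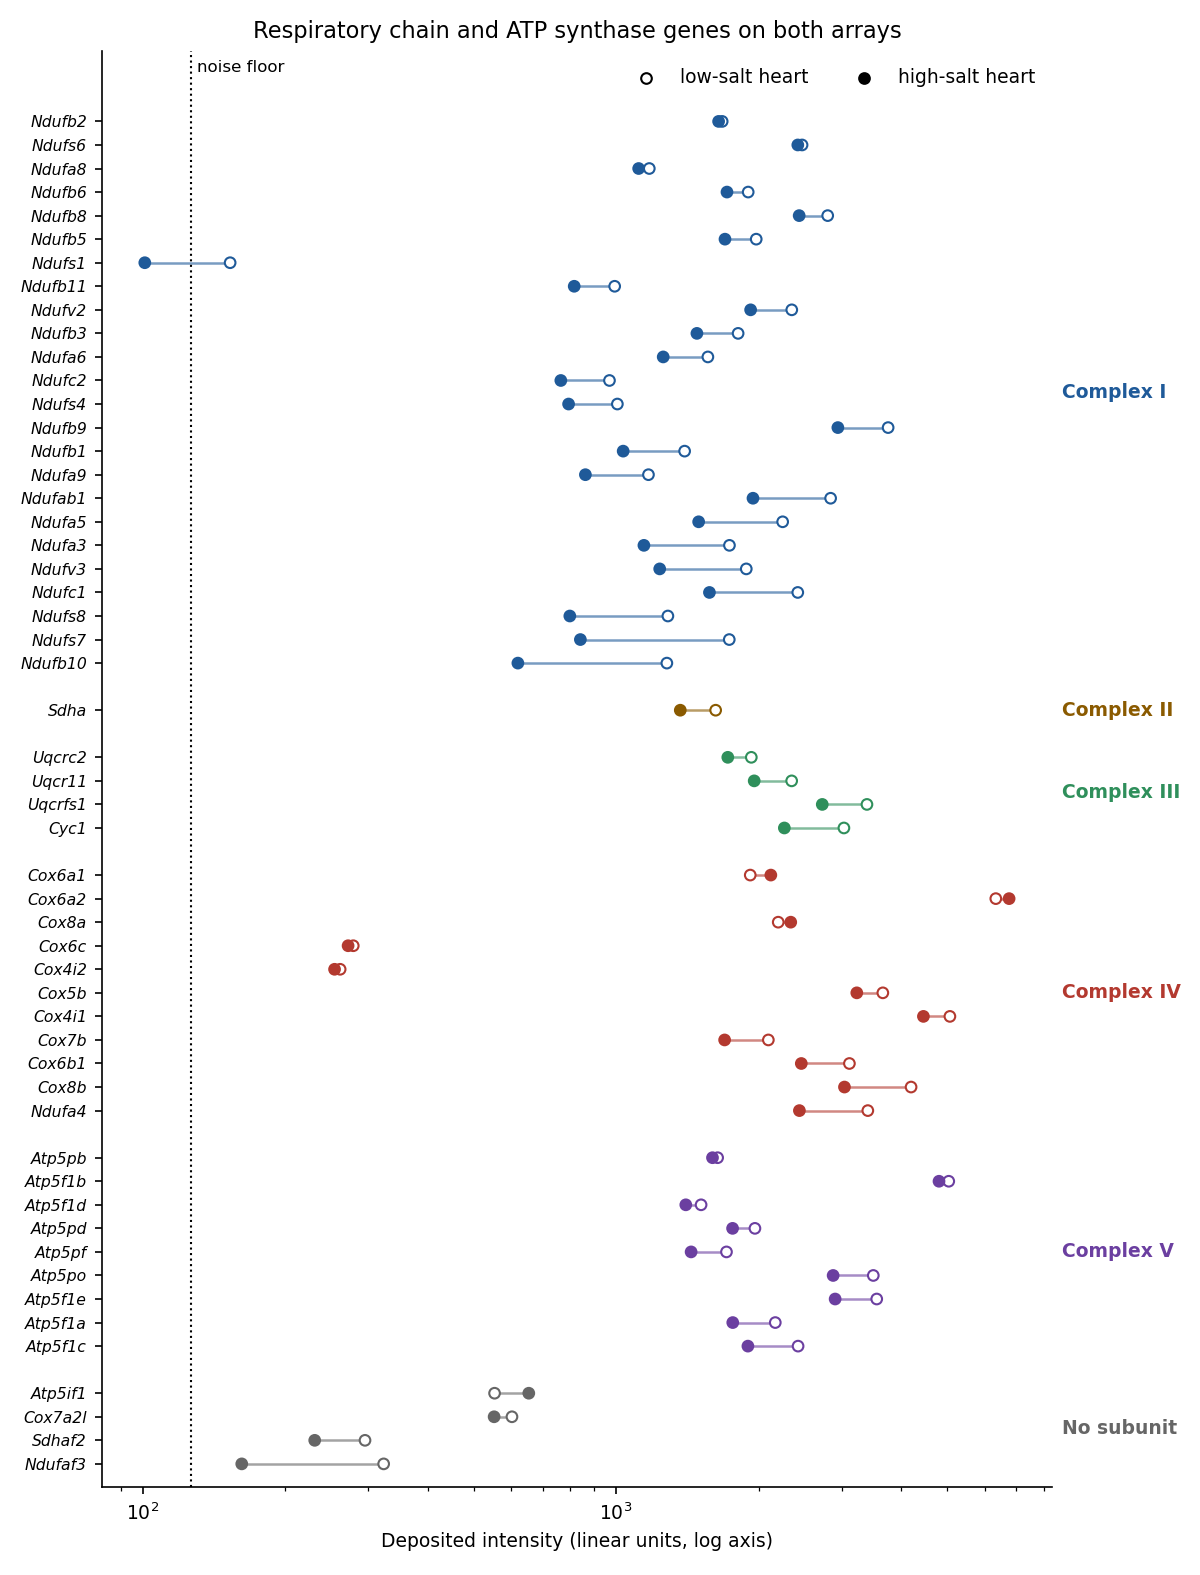
Deposited intensity (log axis, linear units) of the 53 genes on the low-salt array (open circles) and the high-salt array (filled circles), by complex, each gene at its brightest probe set; the dotted line marks the noise floor of 126.4. The filled circle lies left of the open one for 49 genes (44 after loess scaling), and right of it for Cox6a1, Cox6a2, Cox8a and Atp5if1. Without probe sets that may share sequence, Cox8a was lower, and Cox6a1, Cox6a2 and Atp5if1 were not measured.

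Most of these genes were bright, and 48 of the 53 read at least 500 on both arrays. Among the 306 genes of that brightness on the arrays, 55.9% had a ratio below 1, compared with 44 of the 48 members, and 1.31% were at least 2-fold lower and 2.29% at least 2-fold higher, compared with 2 and 0 of the members. The 258 bright genes outside the set had a median log2 ratio of 0.01, and the 48 bright members one of -0.29. Where a gene had several probe sets, their log2 ratios scattered with a pooled SD of 0.22 over 231 genes, and of 0.15 over the 23 members that had several probe sets above the floor on both arrays. This holds no variation between animals, and probe sets made from the same cDNA can share probes. Lower by more than 0.22 were 33 of the 53 members, against 30% of all genes, and 1 member was higher by more than that, against 24.6%. The remaining 19 lay within that SD of 0, 16 of them below and 3 above. At 1.5-fold, 8 members were lower, against 9.46% of all genes, and none was higher, against 9.29%. In 19 of those 23 members, every probe set was lower in the high-salt heart. In 3, Cox6a1, Cox6a2 and Atp5if1, every one was higher, and in Cox8a they disagreed. All the higher readings of those 4 genes came from probe sets whose names mark probes that may match more than 1 transcript or be shared with another probe set. Without all probe sets of that kind, 43 members were measured and all 43 were lower, against 56% of 907 genes, and 3 were at least 2-fold lower (Ndufb10, Ndufs7 and Ndufaf3), against 2.32%. Cox8a was then among the lower genes, and Atp5if1, Cox6a1 and Cox6a2 were not measured. Also among the 43 were Atp5pb, Cox4i2, Cox6c, Ndufb2 and Ndufs6, at log2 ratios between -0.04 and -0.03. Loess scaling turned these genes to just above 1.

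**Figure D2:**
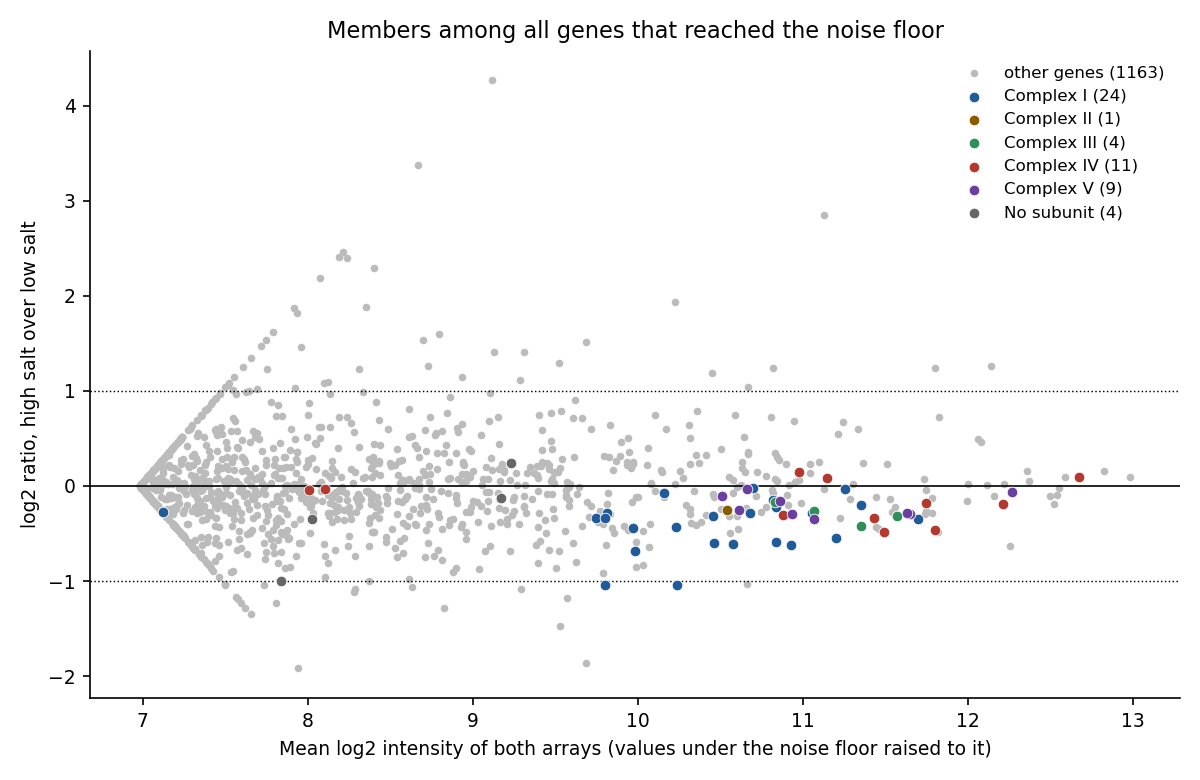
log2 of the high-salt over the low-salt intensity (vertical axis) set against the mean log2 intensity of both arrays (horizontal axis) for the 1216 genes that reached the noise floor, with members coloured by complex and other genes in grey; dotted lines mark 2-fold. Members lie mostly to the right, in the bright range, and just below 0, with 2 complex I genes under the lower dotted line.

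Promoters are shown for the pair of genes past 2-fold and for the isoform pair Cox8a and Cox8b, whose brightest probe sets differed in direction. The 1 Cox8a probe set not named as possibly sharing sequence had a log2 ratio of -0.49, beside -0.47 and -0.50 for Cox8b. The promoters span the 250 bases before and 50 after the annotated start, from RefSeq on the build GRCr8, written 5' to 3' on the gene's strand. RefSeq promoters were matched for 47 of the 56 genes. Capitals mark a match on either strand to 1 of 4 motifs, which were the cores of NRF1 (GCATGCGC), of ETS factors such as GABPA (CCGGAAG), of the oestrogen-related receptors (AAGGTCA) and of YY1 (AAGATGG), regulators known for nuclear genes of the respiratory chain.
Ndufs7, chr7:10110449-10110748, minus strand: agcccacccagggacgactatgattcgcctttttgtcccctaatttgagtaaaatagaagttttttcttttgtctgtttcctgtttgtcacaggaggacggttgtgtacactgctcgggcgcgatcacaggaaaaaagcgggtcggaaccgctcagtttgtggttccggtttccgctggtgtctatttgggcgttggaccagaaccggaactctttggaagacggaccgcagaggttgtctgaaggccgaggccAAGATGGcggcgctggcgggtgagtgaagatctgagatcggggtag
Ndufb10, chr10:14255917-14256216, minus strand: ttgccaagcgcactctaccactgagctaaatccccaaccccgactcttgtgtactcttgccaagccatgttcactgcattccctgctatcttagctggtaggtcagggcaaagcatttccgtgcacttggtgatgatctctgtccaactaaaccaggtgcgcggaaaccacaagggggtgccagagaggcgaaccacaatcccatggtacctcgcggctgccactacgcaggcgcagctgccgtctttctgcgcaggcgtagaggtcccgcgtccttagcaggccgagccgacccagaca
Cox8a, chr1:213833574-213833873, minus strand: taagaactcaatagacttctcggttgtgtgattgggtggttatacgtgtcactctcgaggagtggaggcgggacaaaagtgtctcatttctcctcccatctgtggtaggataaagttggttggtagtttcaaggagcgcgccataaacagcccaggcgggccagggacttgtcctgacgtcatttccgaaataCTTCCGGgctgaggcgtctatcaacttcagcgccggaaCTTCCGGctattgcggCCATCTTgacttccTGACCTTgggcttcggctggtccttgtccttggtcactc
Cox8b, chr1:205408224-205408523, minus strand: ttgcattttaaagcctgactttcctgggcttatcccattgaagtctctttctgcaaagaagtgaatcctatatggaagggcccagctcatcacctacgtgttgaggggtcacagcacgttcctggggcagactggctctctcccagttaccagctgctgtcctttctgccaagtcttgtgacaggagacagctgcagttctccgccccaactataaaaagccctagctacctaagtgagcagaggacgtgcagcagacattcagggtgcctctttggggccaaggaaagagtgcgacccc

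Ndufs7 carries the YY1 core at position 5 from its start, and Ndufb10 and Cox8b hold none of the 4 motifs in this window. Cox8a holds 2 ETS cores, 1 YY1 core and 1 oestrogen-related receptor core, all on the opposite strand and none overlapping another. Over the 47 promoters, the YY1 core was in 27.7%, compared with 7.34% of 3871 promoters of genes on the array and 7.01% of all 33469. The ETS core was in 21.3%, compared with 12.3% and 8.75%, and the oestrogen-related receptor core in 10.6%, compared with 3.05% and 4.61%. NRF1 core matches were in 4.26%, compared with 3.25% and 2.47%. In Atp5po the NRF1 core matched on both strands at overlapping positions. No match was found in 26 of the 47. The promoters of the members had a median GC content of 56%, those of genes on the array 60% and all promoters 51.7%. The median log2 ratio was -0.30 in the 12 measured genes with a YY1 core and -0.29 in the 33 without, and -0.26 in the 10 with an ETS core and -0.31 in the 35 without. The 5 with an oestrogen-related receptor core, Atp5f1a, Atp5f1e, Cox8a, Ndufb2 and Ndufs6, had a median of -0.03, and the 40 without one -0.31. In probe sets outside the kind that may share sequence, these 5 read -0.30, -0.31, -0.49, -0.03 and -0.03, in that order. The gap thus depends on the Cox8a probe set used and was not tested. A match is a description of these letters and not a site shown to be bound.

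Complex I, the NADH dehydrogenase, had the lowest median of the complexes with more than 1 gene measured. All 24 of its measured genes read lower in the high-salt heart, although Ndufb2 and Ndufs6 turned to just above 1 under loess scaling. Their median log2 ratio was -0.34, between quartiles of -0.59 and -0.26, and 18 of them were lower by more than 0.22, against 30% of all genes. Without Ndufb10 and Ndufs7 the median was -0.33. It is built of an arm that reaches into the matrix, where NADH is oxidised (N module) and ubiquinone is reduced (Q module), and an arm in the membrane that pumps protons.

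The Q module stood lowest within complex I, at a median log2 ratio of -0.69 over 3 genes. Ndufs7, which carries the last iron-sulfur cluster before ubiquinone, read 840.7 on the high-salt array and 1734.2 on the low-salt array, 2.06-fold lower. Ndufs8, another iron-sulfur subunit next to it, read 798.7 against 1286.7 in its brightest probe set, 1.61-fold lower. Its other probe sets read 339.8 against 615.2, 55.5 against 238.4 and -177.7 against 45.0, so 3 of the 4 were lower and the last, under the floor on both arrays, gives no ratio. Ndufa5, an accessory subunit of the same module, read 1494.3 against 2248.3, a log2 ratio of -0.59.

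The N module had a median log2 ratio of -0.29 over 5 genes. Its lowest gene was Ndufv3, an accessory subunit bound to the NADH-binding flavoprotein, at 1236.5 against 1883.7. A second Ndufv3 probe set was under 0 on both arrays. Ndufv2, an iron-sulfur subunit of the NADH-oxidising tip, read 1924.0 against 2350.2, and Ndufs4, an accessory subunit needed for stable assembly of the module, 793.9 against 1006.4. These differences were modest and shared a direction. Ndufs1, the largest iron-sulfur subunit, was dim at 101.1 against 153.1, so its ratio against the floor is a bound of at least 1.21-fold lower. Ndufs6, an accessory subunit of this module, was nearly level at 2420.2 against 2470.8.

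Where the matrix arm meets the membrane, 3 genes were between 1.24-fold and 1.46-fold lower. Ndufab1, the mitochondrial acyl carrier protein, read 1946.2 against 2838.9, and a second probe set 559.3 against 1023.3. Ndufa6, which binds that carrier, read 1257.7 against 1562.9, although its dim second probe set, at 126.6 against 121.9, did not share the direction. Ndufa9, at the same junction, read 861.5 against 1170.7.

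In the proximal part of the membrane arm, Ndufc1 read 1574.8 against 2419.8 and Ndufa3 1145.1 against 1735.7, both over 1.5-fold lower. That Ndufc1 probe set may share sequence. Its second probe set, not of that kind, read 1004.9 against 1363.9, 1.36-fold lower. Ndufc2 read 764.5 against 968.5. Ndufa8, a subunit on the intermembrane-space side, was close to level at 1116.2 against 1175.4. In the distal part, Ndufb10 read 620.4 against 1280.3, a 2.06-fold difference on its single probe set. By brightest probe set it had the lowest ratio of all members, almost the same as Ndufs7. A second probe set of Ndufaf3 lay lower, at a log2 ratio of -1.23. The other 8 distal genes lay closer together, between a log2 ratio of -0.43 and -0.03 in their brightest probe sets. Ndufb1 read 1035.2 against 1395.8, Ndufb9 2940.6 against 3754.8 and Ndufb3 1481.7 against 1810.4. Ndufb11 read 815.9 against 993.3. Smaller differences were seen for Ndufb5, at 1698.5 against 1977.0, Ndufb8, at 2436.2 against 2798.9, and Ndufb6, at 1715.0 against 1901.3. The second probe sets of Ndufb5, at 338.2 against 468.4, and Ndufb6, at 802.2 against 1019.0, had lower log2 ratios of -0.47 and -0.35. Ndufb2 was nearly equal on both arrays, at 1646.6 against 1675.4.

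**Figure D3:**
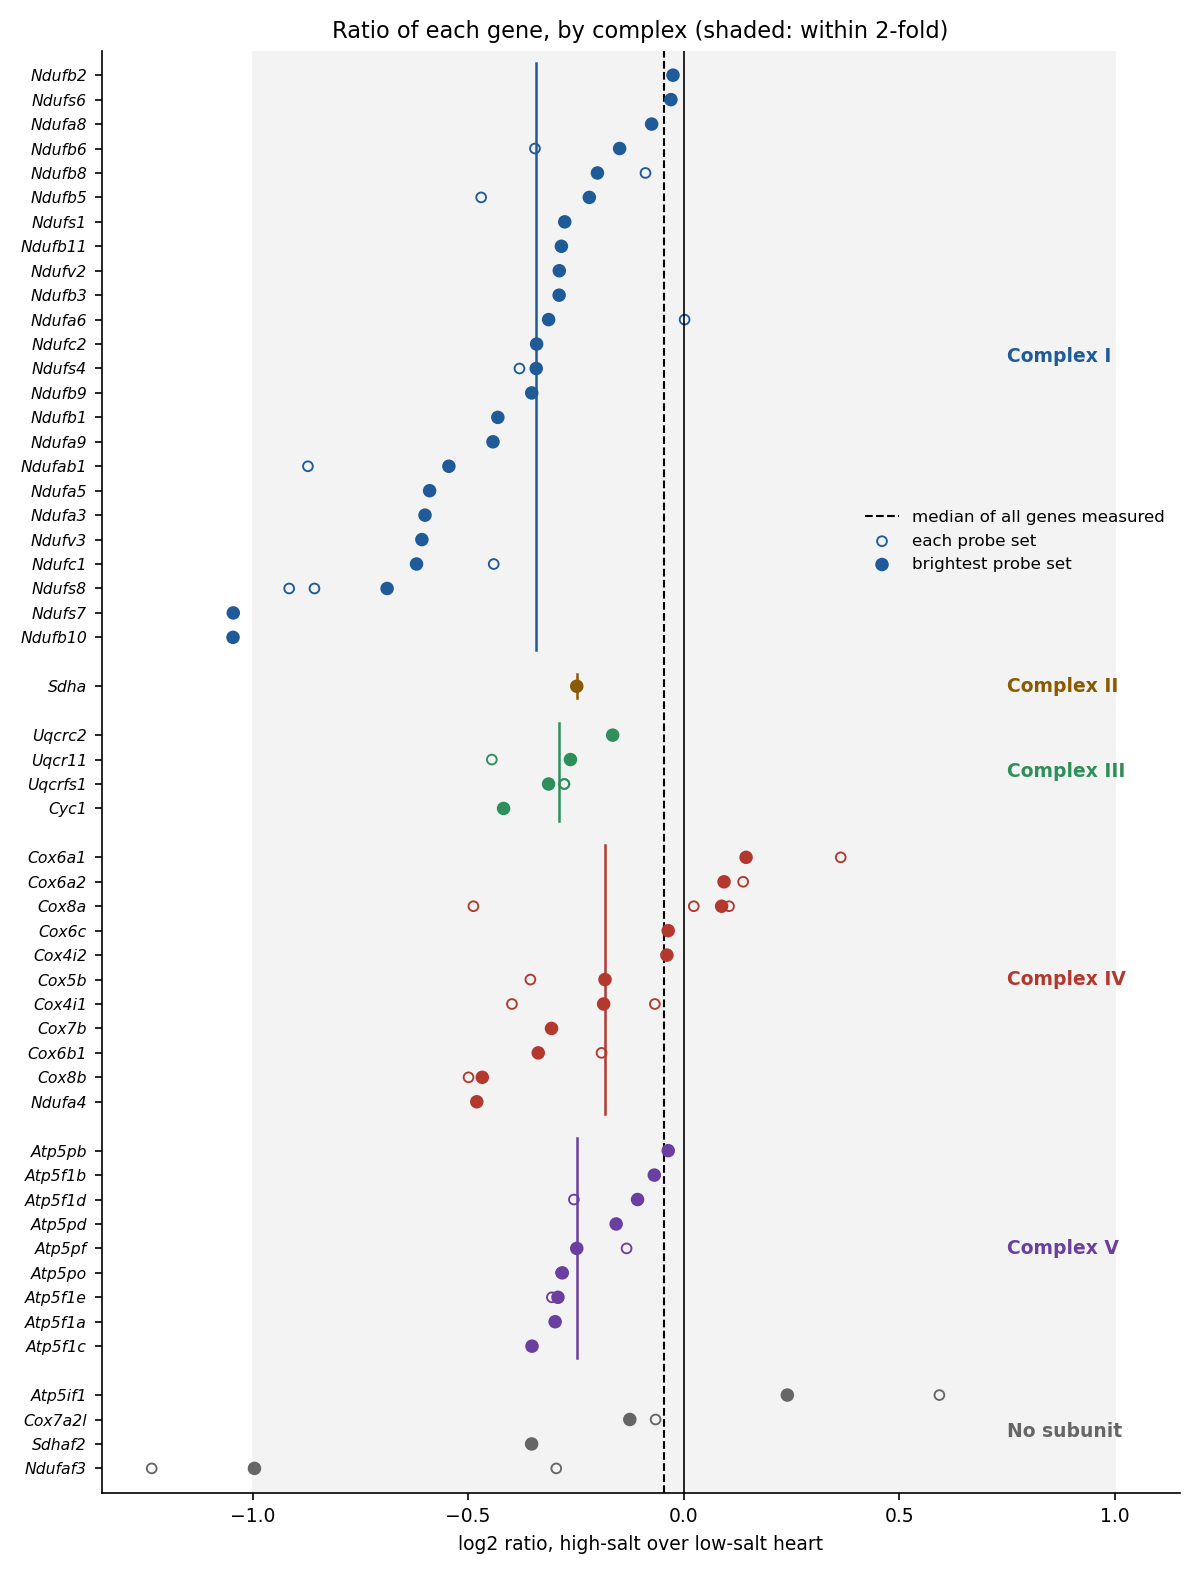
log2 of the high-salt over the low-salt intensity (horizontal axis) for every gene that reached the noise floor, by complex: filled circles are the brightest probe set, open circles the gene's other probe sets, coloured lines the median of each complex (-0.34 for I, -0.18 for IV, -0.25 for V) and the dashed line the median of all 1216 genes (-0.04). Ndufb10 and Ndufs7 lie outside the 2-fold range, as does 1 probe set of Ndufaf3.

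Complex II, succinate dehydrogenase, was represented by 1 subunit. Sdha, the flavoprotein that oxidises succinate in both the citrate cycle and the chain, read 1366.6 against 1623.1, 1.19-fold lower. Its complex median is that single gene, and the probe set gives no view of the other subunits.

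Complex III, which passes electrons from ubiquinol to cytochrome c, had 4 measured genes, all lower in the high-salt heart, with a median log2 ratio of -0.29. Cyc1, the haem subunit that hands electrons to cytochrome c, read 2266.9 against 3028.5, 1.34-fold lower. Uqcrfs1, the Rieske iron-sulfur protein, read 2725.8 against 3387.5, and its 3 probe sets spanned log2 ratios from -0.31 to -0.28. The agreement among those probe sets was close. Uqcr11, a small subunit, read 1957.7 against 2349.0 and, in a second probe set, 1618.3 against 2203.2. Uqcrc2, a core protein of the matrix side, read 1721.9 against 1930.4.

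Complex IV, cytochrome c oxidase, held genes read lower and genes read higher. The higher readings came only from probe sets that may share sequence, as did all readings of the lower genes Cox4i1, Cox5b and Cox8b. Of 12 genes, 11 reached the floor, 8 were lower and 3 higher in the high-salt heart (Cox4i2 and Cox6c turned under loess scaling), and the median log2 ratio was -0.18 (quartiles -0.32 and 0.03). Lower by more than 0.22 were 4 of the 11, near the share of 30% among all genes, and 7 lay within that SD of 0. Without probe sets that may share sequence, 6 genes of the complex were measured, all 6 were lower, and the median log2 ratio was -0.25. Cox4i1, Cox5b, Cox6a1, Cox6a2 and Cox8b were then not measured. Cox4i2 and Cox6c, which loess scaling turned, were among the 6. Cox5a was dim, at 48.3 against 64.5, and gives no ratio. Ndufa4, named for complex I but known as a complex IV subunit, read 2439.0 against 3401.8, 1.39-fold lower.

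The subunits without a tissue isoform among the members were lower or level. Cox6b1 read 2461.7 against 3110.5 and Cox7b 1695.5 against 2097.2. Cox5b, a zinc-binding subunit, read 3224.2 against 3659.5, and its second probe set 1507.2 against 1928.7. Cox6c was nearly equal on both arrays, at 271.7 against 278.6.

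The isoform pairs differed from one another. Cox8b, the isoform of heart and skeletal muscle, read 3036.7 against 4198.2 and 2743.0 against 3876.8. Both probe sets were thus close to 1.4-fold lower, at log2 ratios of -0.47 and -0.50. Cox8a, the ubiquitous isoform of the same subunit, read 2338.4 against 2200.4, 2217.1 against 2061.6 and 823.6 against 810.5 in 3 probe sets. The fourth read 602.0 against 844.2, a log2 ratio of -0.49, so Cox8a has no settled direction. The fourth is the only one of these Cox8a and Cox8b probe sets not named as possibly sharing sequence. For the other pair, both isoforms were a little higher, in probe sets that may all share sequence. Cox6a1, the ubiquitous isoform, read 2122.7 against 1920.5 and 2187.2 against 1699.6, and Cox6a2, the muscle isoform, 6762.4 against 6338.8 and 5271.0 against 4791.7. Each had 1 more probe set, under the floor. Cox4i1, the common isoform of the regulatory subunit, read 4457.8 against 5070.7, its 3 probe sets lying between -0.40 and -0.07 in log2 ratio, and Cox4i2, its isoform of lung and low oxygen, 254.4 against 261.4. Whether probes of 1 isoform also read another was not tested.

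Mitochondrial DNA encodes the catalytic core of complex IV, and its 3 genes on the arrays were close to level. COX1 read 5384.6 against 5204.1 and, in a second probe set, 4438.7 against 4379.2. COX3 read 4457.7 against 4436.2 and COX2 2377.8 against 2624.4. Their log2 ratios, between -0.14 and 0.05, stood beside a median of -0.18 over the nuclear genes of the same complex. The difference between them was not tested, with 1 array per diet. All probe sets of COX1, COX2 and COX3 are of a kind that may share sequence. Without such probe sets none of the 3 was measured, and the nuclear genes of the complex had a median of -0.25.

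**Figure D4:**
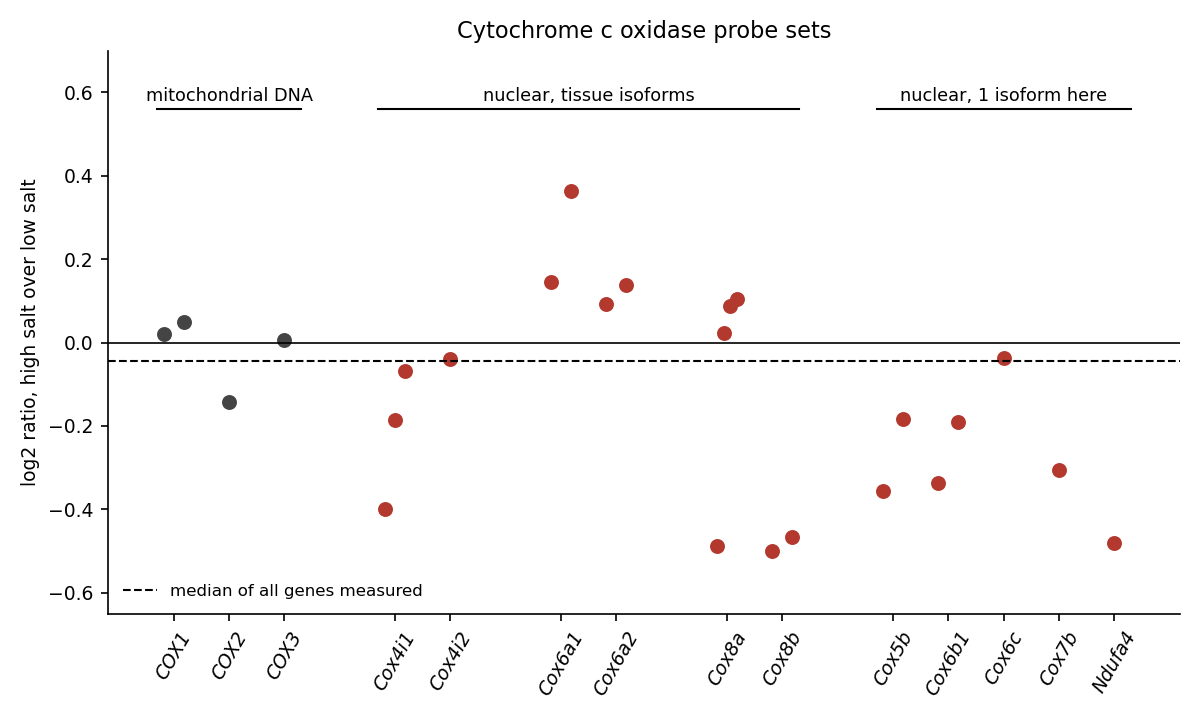
log2 of the high-salt over the low-salt intensity (vertical axis) of each complex IV probe set that reached the noise floor: grey circles are genes of mitochondrial DNA, red circles nuclear genes, several circles at a gene are its probe sets, and the dashed line is the median of all genes (-0.04). Cox8b lies near -0.5 and 3 of the 4 Cox8a probe sets just above 0, these 3 and those of Cox8b all of a kind that may share sequence. COX1, COX2 and COX3 lie between -0.14 and 0.05, in probe sets that are all of that kind too.

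Complex V had 9 measured subunit genes, all lower in the high-salt heart except for Atp5pb under loess scaling, within the narrow range of -0.35 to -0.04 and with a median log2 ratio of -0.25. In the F1 head, where ATP is made, Atp5f1a, the alpha subunit, read 1763.9 against 2169.1, and Atp5f1b, the catalytic beta subunit, 4808.9 against 5042.3. The alpha subunit was thus 1.23-fold lower and the beta subunit 1.05-fold. Of the rotating central stalk, Atp5f1c (gamma) read 1898.8 against 2423.4, Atp5f1e (epsilon) 2901.9 against 3552.4 and Atp5f1d (delta) 1403.8 against 1512.1. The gamma subunit had the lowest ratio among these 9 genes, 1.28-fold lower. Probe sets of 2 further subunit genes, Atp5mc1 and Atp5mc2, were left out because they carried several symbols. They read 2347.0 against 3234.8 and 1216.0 against 1544.1, which is 1.38-fold and 1.27-fold lower. The peripheral stalk, which holds the head still, had a median log2 ratio of -0.20 over 4 genes. Atp5po, the subunit that ties the stalk to the head, read 2873.7 against 3493.5, with nearly the same ratio in its second probe set, and Atp5pf 1440.5 against 1710.9. Atp5pd read 1762.3 against 1964.7 and Atp5pb 1598.3 against 1638.8, the latter almost equal.

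Atp5if1, the protein that blocks the ATP synthase when it runs backwards, had the highest ratio of all members. It read 654.2 against 553.9 and 571.7 against 379.1 in the probe sets above the floor, log2 ratios of 0.24 and 0.59. Its 2 dim probe sets, under the floor, read 88.6 against 58.2 and -20.1 against -25.9. All 4 are of a kind that may share sequence, so without such probe sets Atp5if1 was not measured. The other members that are no subunit were lower. Ndufaf3, an assembly factor of complex I, read 162.0 against 323.0, a 1.99-fold difference just short of 2-fold, and 127.9 against 300.8 in a second probe set, which passed it at a log2 ratio of -1.23. Its other probe set was dimmer, at 111.8 against 155.2. Sdhaf2, which helps attach the flavin to Sdha, read 231.0 against 295.0, and Cox7a2l, a factor that joins complexes III and IV, 552.7 against 602.8. Ndufa4l2, a relative of Ndufa4 induced by low oxygen, and the pseudogene Cox6c-ps1 stayed under the floor on both arrays in all their probe sets.

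Over probe sets rather than genes, 83 of 102 reached the floor on an array, of which 73 were lower and 10 higher in the high-salt heart, and 3 were at least 2-fold lower. The 19 others read between -177.7 and 88.6. Shares over all probe sets of the arrays are not given here. Counted by gene, 54.5% of all genes that reached the floor had a ratio below 1, and 1.89% were at least 2-fold lower. A further 6 probe sets carried several symbols that all met the name rule, among them copies and pseudogenes of the subunit genes, and were left out. All 6 were lower, at log2 ratios between -0.46 and -0.18. Brightness and ratio were weakly related across the 52 members above the floor on both arrays, with a Pearson r of 0.17 and a Spearman rho of 0.11; these are genes of the same 2 arrays and not replicates. Loess scaling of the arrays turned 5 of the lower genes, Atp5pb, Cox4i2, Cox6c, Ndufb2 and Ndufs6, to ratios just above 1, so these have no settled direction.

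Genes that feed or serve the chain were compared too. All 6 measured citrate cycle genes were lower, with a median log2 ratio of -0.39 and none at 2-fold, among them Suclg1, a subunit of succinyl-CoA ligase, at 859.8 against 1344.9 and Cs, citrate synthase, at 587.8 against 827.2. Dlst, of the oxoglutarate dehydrogenase complex, read 888.6 against 1236.3, and Idh3g, of isocitrate dehydrogenase, 820.7 against 1008.0. Of the genes that bring electrons to ubiquinone by other routes, 3 were measured and all were lower. Etfdh, the oxidoreductase that takes electrons from fatty acid oxidation, read 426.5 against 684.0, and Etfa, of the flavoprotein that supplies it, 540.2 against 714.6. Coq3, an enzyme of ubiquinone synthesis, was dim at 111.2 against 150.9. Genes of ATP export and carriers went both ways, with 6 of 10 lower, 4 higher and none at 2-fold. Ak3, an adenylate kinase of the matrix, read 442.2 against 291.8, and Slc25a5, an ADP/ATP carrier, 1119.0 against 872.2. Lower were Ckm, the muscle creatine kinase, at 3062.3 against 4279.7, and Slc25a11, the oxoglutarate carrier, at 1135.9 against 1506.8. Of the list of assembly and mitochondrial DNA factors, Phb2, a prohibitin of the inner membrane, was the one measured, at 538.5 against 981.0, 1.82-fold lower. The values given for Etfdh, Slc25a5 and Phb2 came from probe sets that may share sequence. The regulators Esrra, Ppara and Hif1a were all under the floor on both arrays, so their order is not readable.

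**Figure D5:**
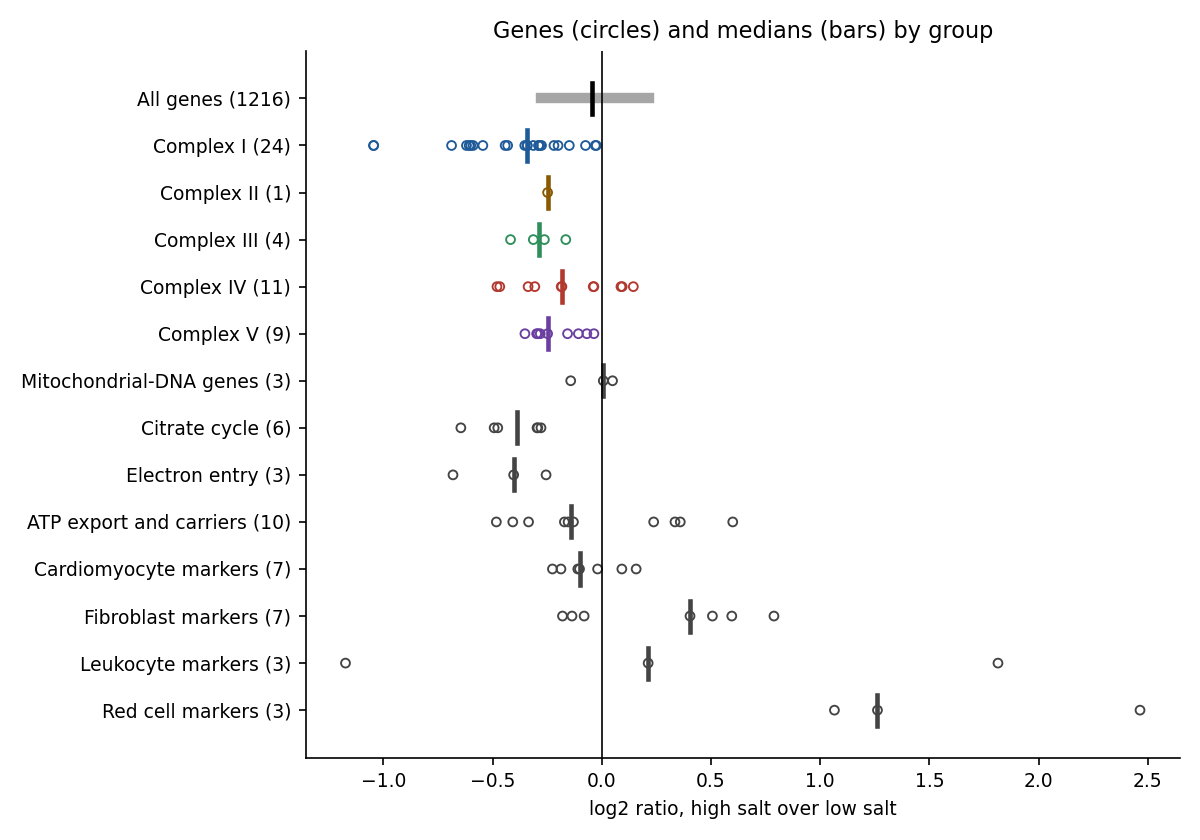
log2 of the high-salt over the low-salt intensity (horizontal axis) for each gene (circles) and the group medians (vertical bars), with the number of genes measured in brackets; for all genes the thick line spans the quartiles from -0.28 to 0.22. Complexes I, II, III and V and the citrate cycle lie wholly below 0 (under loess scaling Ndufb2, Ndufs6 and Atp5pb did not). Red cell markers lie above 1 in their brightest probe sets, Alas2 and Slc4a1 as bounds.

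Markers of the heart muscle cell and of other cells were read beside these values. Of 8 cardiomyocyte markers, 7 were measured, with a median log2 ratio of -0.10, and their summed intensity was 39129 against 39701. That sum was nearly equal on both arrays, although 5 of the 7 genes were lower and 2 higher, beside 54.5% of all genes lower. In their brightest probe sets the 7 genes lay between log2 ratios of -0.23 and 0.16, while other probe sets reached -0.94 for Myh6 and -0.48 for Tnni3, and Ryr2 was under the floor. Of 8 fibroblast markers, 7 were measured, of which 4 were higher and 3 lower (Col3a1, Pdgfra and Dcn), with a sum of 4655.6 against 3788.6. Their median log2 ratio of 0.40 is that of Postn, a bound from 167.3 against 5.0. All 3 red cell markers (Hbb, Alas2, Slc4a1) were at least 2-fold higher in their brightest probe set, against 3.54% of all genes. Their sum was 7944.9 against 3134.8. Alas2 and Slc4a1 are bounds, with low-salt values of 104.5 and 119.8 under the floor. Another Slc4a1 probe set was at a log2 ratio of -0.05. Of 5 leukocyte markers, 3 were measured, with Lyz2 at a log2 ratio of 1.81, Cd74 at -1.17 and a sum of 1115.0 against 1403.5; Ptprc and Itgam were under the floor. Endothelial markers were all under the floor, as was Ucp1 of brown fat, and of 4 smooth muscle and 4 skeletal muscle markers Acta2 and Myh1 were the ones measured. The part of these cells in the lower subunit readings was not tested. RNA quality was read from the control probe sets, where the 3' over 5' ratio was 1.30 and 1.22 for Gapdh and 1.16 and 1.10 for beta-actin on the high-salt and low-salt array.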

How the data were processed

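The authors deposited linear intensities, 1 for each probe set of an array and some below 0, made with software that is not given in the sources used here. Labelled cRNA was made by in vitro transcription, per the labels' protocols. Both arrays had the same 2% trimmed mean to within 0.0030%, and no further scaling was applied. Groups came from the source names. Genes were named from the platform annotation of 2016, using probe sets with 1 symbol (7006; 308 had several and 1426 none). The brightest probe set by mean log2 value stood for a gene. Values under the noise floor of 126.4 were raised to it. A gene was measured where it reached the floor on an array; 1 value under it gives a bound. Probe sets that may share sequence are those with a letter before the _at of their name. Both intensities are given for every measured member, and other lists by up to 4 measured genes of the largest ratio; the markers Lyz2, Cd74, Postn, Col3a1, Pdgfra, Dcn, Myh6 and Tnni3 were picked after their values were seen. No test was possible with 1 array per diet. The members, lists and main settings were chosen with earlier results of these data known. Summaries were tested on simulated arrays. Genes were assigned to complexes by textbook membership. Protein sequences were not used here. Tools were Python 3.11.15, numpy 2.4.6, pandas 2.3.3, statsmodels 0.14.6 and matplotlib 3.10.9.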

Additional observations from a re-analysis of the deposited data

How the results depend on the processing

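The direction of every median, over all members and for each complex, was kept under all alternatives run. These were other floors (the 40th percentile of all values, 10.9, and the 90th and 99th percentiles of the size of values below 0), log2(value + 50) without a floor, genes above the floor on both arrays alone, median, quantile and loess scaling (span 0.4), the median of a gene's probe sets, each probe set alone, no probe sets that may share sequence, and subunits alone. The median over all members ran from -0.30 to -0.24, that of complex I from -0.35 to -0.30 and that of complex IV from -0.25 to -0.11. Counting Ndufa4 with complex I was chosen after seeing the data and kept both medians' direction. The count of genes at least 2-fold lower was the least firm: it was 1 with log2(value + 50), 8 at 1.5-fold and 0 at 3-fold, and, at 2-fold, 3 of 43 genes without probe sets that may share sequence. All 43 genes were lower in that last setting, among them those that loess scaling turned to just above 1. Of the 4 higher genes, Cox8a was then lower, and Cox6a1, Cox6a2 and Atp5if1 were not measured. No gene was at least 2-fold higher under any alternative run. No paired analysis was possible because no result comes from a test. Having 1 array per diet limits all of this.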
